A study of Mus musculus with 14 samples.

Results

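The retinoic acid genes described here were 9 genes chosen by symbol for their roles in making, carrying, sensing and clearing retinoic acid, out of 21929 genes measured. All 9 were found, each with 1 probe set. They were Stra6 and Rbp4 (retinol transport), Aldh1a1, Aldh1a2 and Aldh1a3 (synthesis), Crabp1 and Crabp2 (intracellular binding), Rarb (nuclear receptor) and Cyp26b1 (clearance). Retinol travels in blood bound to RBP4, and STRA6 is the membrane receptor through which cells take it up. Alcohol and retinol dehydrogenases oxidise retinol to retinaldehyde, and the ALDH1A enzymes oxidise that to retinoic acid, which acts by binding nuclear receptors. In rodents the epididymal epithelium depends on vitamin A and turns squamous when it is lacking.

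Transcript levels came from single-colour Clariom S mouse arrays of the proximal epididymis of 8-week-old mice. Ctl mice were the controls, with alleles not given in the sources used here, and cKO mice had a conditional knockout of Arl13b, a ciliary GTPase gene, in Krt5-positive basal cells. In every mouse the efferent ducts of one side were ligated (EDL), which cuts off testicular fluid and sperm, and the other side was sham-operated; tissue was collected 48 h later. Ctl mice gave 4 sham and 4 EDL arrays, and cKO mice gave 3 of each.

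Array medians lay between 6.96 and 7.06 on the log2 scale used throughout, and precision is limited by how few arrays there are. Arl13b, the targeted gene, ranged from 6.87 to 7.46 in Ctl sham and from 7.15 to 7.24 in cKO sham arrays. In EDL arrays it ranged from 7.33 to 7.60 in Ctl and from 7.14 to 7.58 in cKO mice. The cKO minus Ctl difference was 0.10 ± 0.14 in sham tissue and -0.13 ± 0.14 in EDL tissue (SE, limma adjusted p = 0.999 and 0.9), so this whole-tissue measurement does not show the deletion. Which exons the deletion removes and the probes read was not given in the sources used here. On the first principal component cKO sham replicate 2 lay furthest out among the sham arrays (-36.5, the others from -28.5 to -13.8), so results that change without it are given both ways. The 7 principal cell marker genes were above background and fell after EDL in both genotypes (7 of 7). Olfactory and vomeronasal receptor genes, not thought to be used in this tissue, set the background at 5.31, the 95th percentile of their means. In bulk tissue, fewer cells of a type and less RNA per cell cannot be told apart.

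Stra6, the retinol uptake receptor, rose after EDL in both genotypes. In Ctl mice the sham values were 8.63, 8.57, 8.26 and 8.36 and the EDL values 9.56, 9.68, 9.55 and 10.05. In cKO mice it read 8.66, 8.55 and 8.42 in sham and 9.87, 9.57 and 10.20 in EDL arrays. Every EDL array lay above every sham array, while the genotypes overlapped within each surgery. The rise was 2.39-fold in Ctl (log2 change 1.26 ± 0.14, SE, n = 4 and 4, limma adjusted p = 4.2e-05) and 2.52-fold in cKO (1.33 ± 0.16, n = 3 and 3, adjusted p = 0.000108). From low to high the group means were 8.45 ± 0.17 (SD) for Ctl and 8.55 ± 0.12 for cKO after sham surgery, then 9.71 ± 0.24 for Ctl and 9.88 ± 0.32 for cKO after EDL. The genotype difference was 0.09 ± 0.15 in sham tissue (95% interval -0.24 to 0.42) and 0.17 ± 0.15 in EDL tissue (-0.16 to 0.50), neither past the threshold, and the rise in cKO exceeded that in Ctl by 0.08 ± 0.22 (-0.38 to 0.54). In the authors' second log2 table the rise was larger, 2.45 in Ctl and 2.65 in cKO, that is 5.45-fold and 6.28-fold. That table gave wider changes in general, with a median ratio to the first table of 1.64 over the genes called after EDL, in Ctl and again in cKO. Macrophage markers moved with Stra6: all 7 rose in both genotypes. Their summed linear intensity was 2165 to 2985 in Ctl sham and 4509 to 6078 in Ctl EDL arrays, and 2135 to 2839 and 5229 to 5758 in the cKO arrays. Their part in the Stra6 result was not tested.

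Rbp4, the carrier of retinol in blood, is made by liver and fat and by some epithelia. Its values were 6.36, 6.66, 6.59 and 6.47 in Ctl sham and 6.67, 6.78, 6.83 and 6.88 in Ctl EDL arrays. The cKO sham arrays read 6.30, 6.62 and 6.48 and the cKO EDL arrays 6.85, 7.08 and 6.92. In both genotypes the EDL arrays lay above the sham arrays, in Ctl with almost no gap. Rbp4 rose in cKO by 0.49 ± 0.11 (n = 3 and 3, limma adjusted p = 0.00985). In Ctl the change was 0.27 ± 0.09 and did not pass the threshold (adjusted p = 0.0946). Without cKO sham replicate 2 the cKO change was 0.40 and no longer passed (adjusted p = 0.0571; 0.00518 to 0.0571 over 24 alternatives). The change did not differ between genotypes beyond its error (0.22 ± 0.14, adjusted p = 0.986). Of the 7 adipocyte markers none passed in either genotype, and Adipoq and Lep were at background. Summed adipocyte intensity in Ctl was 226 to 552 after sham surgery and 286 to 442 after EDL, and in cKO 236 to 313 and 259 to 472.

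**Figure D1:**
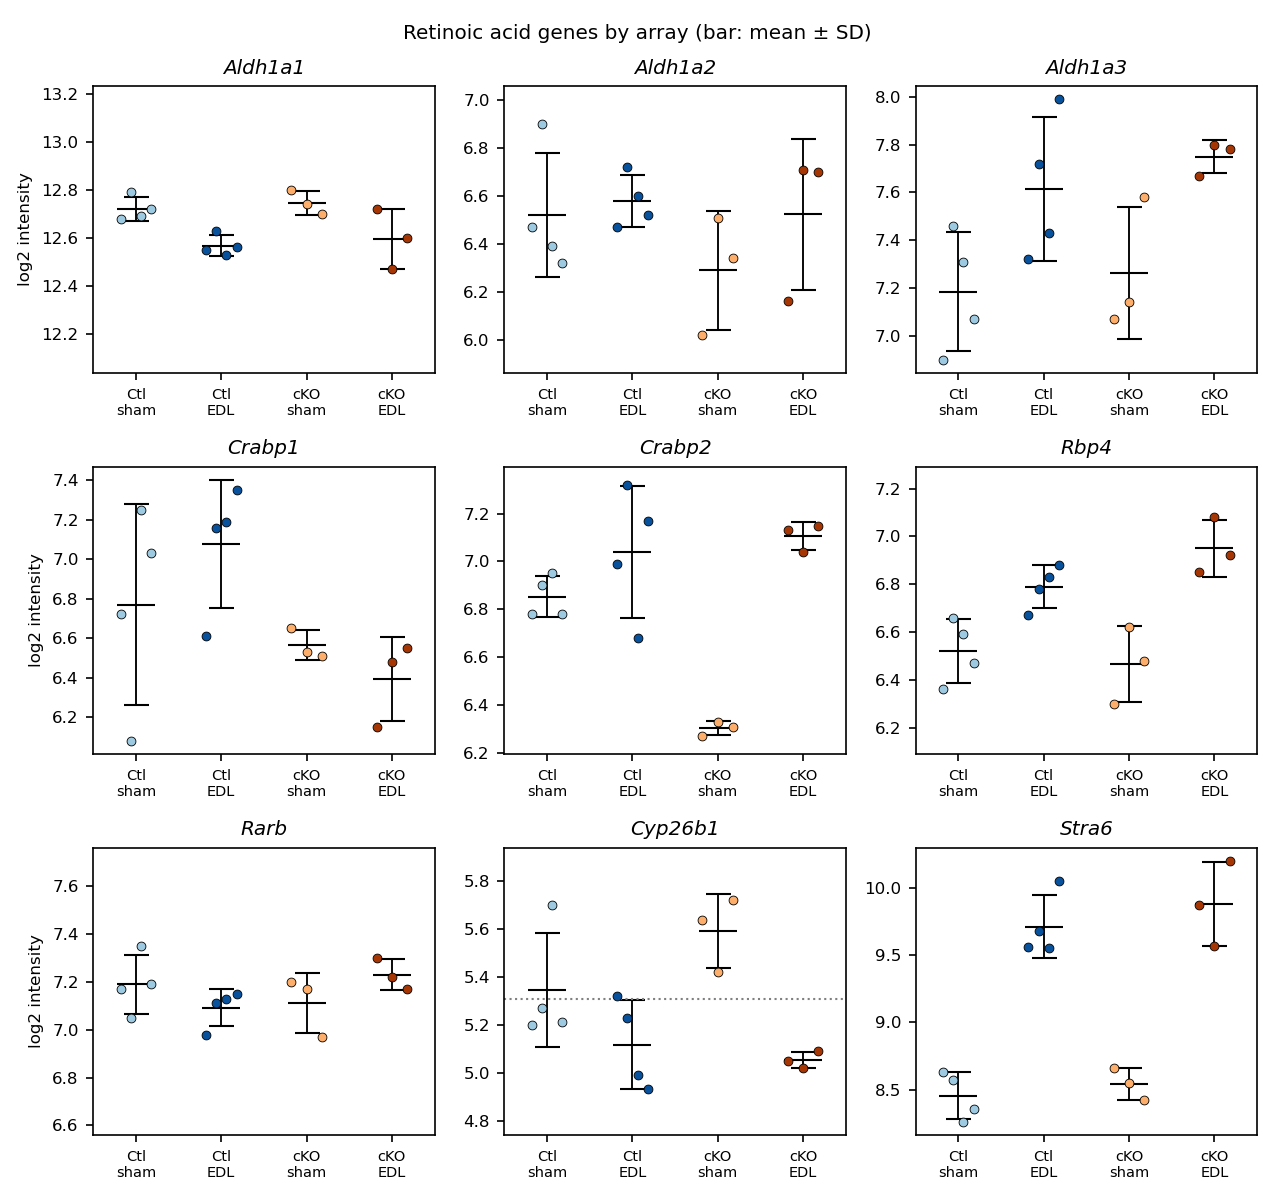
Log2 intensity (y axis) of the 9 retinoic acid genes in each array by group, with the mean ± SD as bars; panels have their own y ranges, and the dotted line in the Cyp26b1 panel is the background of 5.31. Stra6 lay between 8.26 and 8.66 in sham and between 9.55 and 10.20 in EDL arrays, and Crabp2 was lowest in the cKO sham arrays (6.27 to 6.33).

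None of the 3 ALDH1A enzymes passed the threshold in any comparison. Aldh1a1, the cytosolic retinaldehyde dehydrogenase, read 12.68, 12.79, 12.69 and 12.72 in Ctl sham and 12.55, 12.63, 12.53 and 12.56 in Ctl EDL arrays. In cKO it read 12.80, 12.74 and 12.70 in sham and 12.72, 12.47 and 12.60 in EDL arrays. The Ctl groups did not overlap, but the difference was small: -0.15 ± 0.07 in Ctl and -0.15 ± 0.08 in cKO (limma adjusted p = 0.226 and 0.294). The 95% intervals were -0.30 to -0.01 and -0.32 to 0.02. Aldh1a7, a close paralogue, fell in both genotypes and is described with the pathway; whether the probes share sequence was not tested.

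Aldh1a3, a retinaldehyde dehydrogenase of several embryonic and glandular epithelia, read 6.90, 7.46, 7.31 and 7.07 in Ctl sham and 7.32, 7.72, 7.43 and 7.99 in Ctl EDL arrays. The cKO sham arrays read 7.07, 7.14 and 7.58 and the cKO EDL arrays 7.67, 7.80 and 7.78. EDL arrays were mostly higher, with overlap in Ctl and none in cKO. The differences were 0.43 ± 0.16 in Ctl and 0.48 ± 0.18 in cKO, and neither passed (limma adjusted p = 0.121 and 0.119). In the second log2 table they were 0.71 and 0.72 (adjusted p = 0.0961 and 0.129; 0.0635 to 0.315 in Ctl and 0.0549 to 0.344 in cKO over 24 alternatives). Aldh1a2, the main enzyme of mesenchyme and mesothelium in the embryo, read 6.47, 6.90, 6.39 and 6.32 in Ctl sham and 6.47, 6.72, 6.60 and 6.52 in Ctl EDL arrays. In cKO it read 6.02, 6.51 and 6.34 in sham and 6.16, 6.71 and 6.70 in EDL arrays. All 4 groups overlapped, and the EDL minus sham differences were 0.06 ± 0.15 and 0.24 ± 0.17 (adjusted p = 0.888 and 0.483). Their 95% intervals, -0.26 to 0.38 and -0.14 to 0.61, leave room for changes of up to those sizes.

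Crabp2, which carries retinoic acid to its nuclear receptors, was the member in which the sham groups of the genotypes stood apart. After sham surgery it read 6.78, 6.90, 6.95 and 6.78 in Ctl and 6.27, 6.33 and 6.31 in cKO arrays. After EDL it read 6.99, 7.32, 6.68 and 7.17 in Ctl and 7.13, 7.04 and 7.15 in cKO arrays. The cKO sham arrays lay below all the others, and the EDL groups overlapped. Crabp2 rose after EDL in cKO by 0.81 ± 0.13 (1.75-fold, n = 3 and 3, limma adjusted p = 0.00108) and by 0.19 ± 0.11 in Ctl, which did not pass (adjusted p = 0.377). The cKO call held in all 24 alternatives (0.73 to 1.02). The cKO minus Ctl difference in sham tissue was -0.55 ± 0.12 (n = 3 and 4, 95% interval -0.81 to -0.29). Its unadjusted limma p was 0.000388, and after adjustment over all genes it did not pass (adjusted p = 0.999; 0.0709 to 1 over 23 alternatives). In the authors' deposited table the unadjusted p-value for this comparison was 0.00127 and the ratio of Ctl to cKO 1.46. The change after EDL was larger in cKO than in Ctl by 0.62 ± 0.17, again with an unadjusted p (0.00249) that did not survive adjustment (adjusted p = 0.986). These differences all use the same 3 cKO sham arrays, so they are not separate observations.

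Crabp1, the other cytosolic binding protein for retinoic acid, passed in no comparison. It read 6.72, 6.08, 7.25 and 7.03 in Ctl sham and 6.61, 7.16, 7.19 and 7.35 in Ctl EDL arrays. In cKO it read 6.65, 6.53 and 6.51 in sham and 6.15, 6.48 and 6.55 in EDL arrays. The Ctl arrays were scattered, and all cKO EDL arrays lay below all Ctl EDL arrays. That genotype difference was -0.69 ± 0.23 (n = 3 and 4, 95% interval -1.18 to -0.19), with an unadjusted limma p of 0.00966 and an adjusted p of 0.763. The EDL minus sham differences were 0.31 ± 0.21 in Ctl and -0.17 ± 0.25 in cKO (adjusted p = 0.469 and 0.758).

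Rarb encodes a nuclear receptor for retinoic acid and is itself a textbook target of it, through a response element just upstream of its start. The element is a direct repeat of a short half-site with a 5-base spacer, and the promoter is shown because it is the textbook example of one. In the 250 bases before each start in RefSeq (GRCm38.p6), both strands were searched for pairs of half-sites in the same direction, 5, 2 or 1 bases apart. A half-site was AGGTCA, or with other letters allowed at some places AGTTCA, or likewise the form GGTTCA, or finally the form GGGTCA. Of the 9 genes 7 had at least 1 of these windows, 12 windows in all, and the Rarb window alone held such a repeat. It was the 5-base form, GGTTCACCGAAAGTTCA, from 53 to 37 bases before the start, in capitals here (chr14:16575477-16575726, minus strand, 5′ to 3′).
Rarb: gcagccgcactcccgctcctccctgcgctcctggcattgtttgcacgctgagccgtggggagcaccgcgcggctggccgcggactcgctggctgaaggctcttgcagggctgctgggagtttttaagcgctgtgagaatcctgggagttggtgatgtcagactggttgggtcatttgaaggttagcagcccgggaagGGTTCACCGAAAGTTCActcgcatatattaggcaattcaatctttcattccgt
Over all promoters the 5-base form was found in 29 of 32851 windows (0.0883%), the 2-base form in 0.174% and the 1-base form in 0.164%. Because the forms searched include those of the Rarb element, these shares do not measure how unusual the Rarb match is. A match is a description of letters, not of binding in this tissue, and windows without one may have elements elsewhere.

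Rarb itself passed in no comparison. It read 7.17, 7.05, 7.35 and 7.19 in Ctl sham and 6.98, 7.11, 7.13 and 7.15 in Ctl EDL arrays. In cKO it read 7.20, 7.17 and 6.97 in sham and 7.30, 7.22 and 7.17 in EDL arrays. The surgeries overlapped in both genotypes, with differences of -0.10 ± 0.08 in Ctl (95% interval -0.27 to 0.08) and 0.12 ± 0.09 in cKO (-0.09 to 0.32; limma adjusted p = 0.559 and 0.537). The cKO EDL arrays lay just above the Ctl EDL arrays, by 0.14 ± 0.09 on average (adjusted p = 0.832). For comparison the promoter windows of Stra6 (the most upstream of 4 starts, chr9:58128838-58129087, plus strand) and of Cyp26b1 (chr6:84593811-84594060, minus strand) follow, as the uptake and clearance genes. Single half-sites were found in the Rarb window (3), in 1 of the 2 Aldh1a1 windows and in 1 of the 2 Rbp4 windows, and in none of the other 9 windows, those of Stra6 and Cyp26b1 included. The Rarb count includes GGTTCA and AGTTCA of its own element. Of all windows 38.6% held at least 1.
Stra6: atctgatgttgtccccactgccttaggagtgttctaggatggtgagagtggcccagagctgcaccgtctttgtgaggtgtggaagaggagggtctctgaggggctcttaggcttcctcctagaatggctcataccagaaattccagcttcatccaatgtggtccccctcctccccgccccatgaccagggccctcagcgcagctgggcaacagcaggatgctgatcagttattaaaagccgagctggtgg
Cyp26b1: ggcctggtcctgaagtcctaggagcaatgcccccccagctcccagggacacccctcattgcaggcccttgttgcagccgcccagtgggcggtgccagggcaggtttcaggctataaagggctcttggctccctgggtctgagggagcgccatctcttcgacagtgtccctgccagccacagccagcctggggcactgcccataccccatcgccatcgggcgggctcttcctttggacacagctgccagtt

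Cyp26b1, a cytochrome P450 that breaks retinoic acid down, was close to background. It read 5.20, 5.27, 5.70 and 5.21 in Ctl sham and 5.32, 5.23, 4.99 and 4.93 in Ctl EDL arrays. In cKO it read 5.64, 5.42 and 5.72 in sham and 5.05, 5.02 and 5.09 in EDL arrays. All cKO sham arrays were above the background of 5.31 and all cKO EDL arrays below it, and the Ctl groups overlapped. Cyp26b1 fell in cKO by 0.54 on the log2 scale (-0.54 ± 0.14, n = 3 and 3, limma adjusted p = 0.0237). Since the EDL mean was below background, the fall is given as at least 1.22-fold, from the background level. In Ctl the difference was -0.23 ± 0.12 (adjusted p = 0.308). The cKO call was lost on leaving out any 1 cKO array other than sham replicate 3 (-0.48 to -0.56, adjusted p = 0.0566 to 0.0885) and in the second log2 table (-0.72, adjusted p = 0.0564). Over 23 alternatives the adjusted p was 0.00857 to 0.0885.

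**Figure D2:**
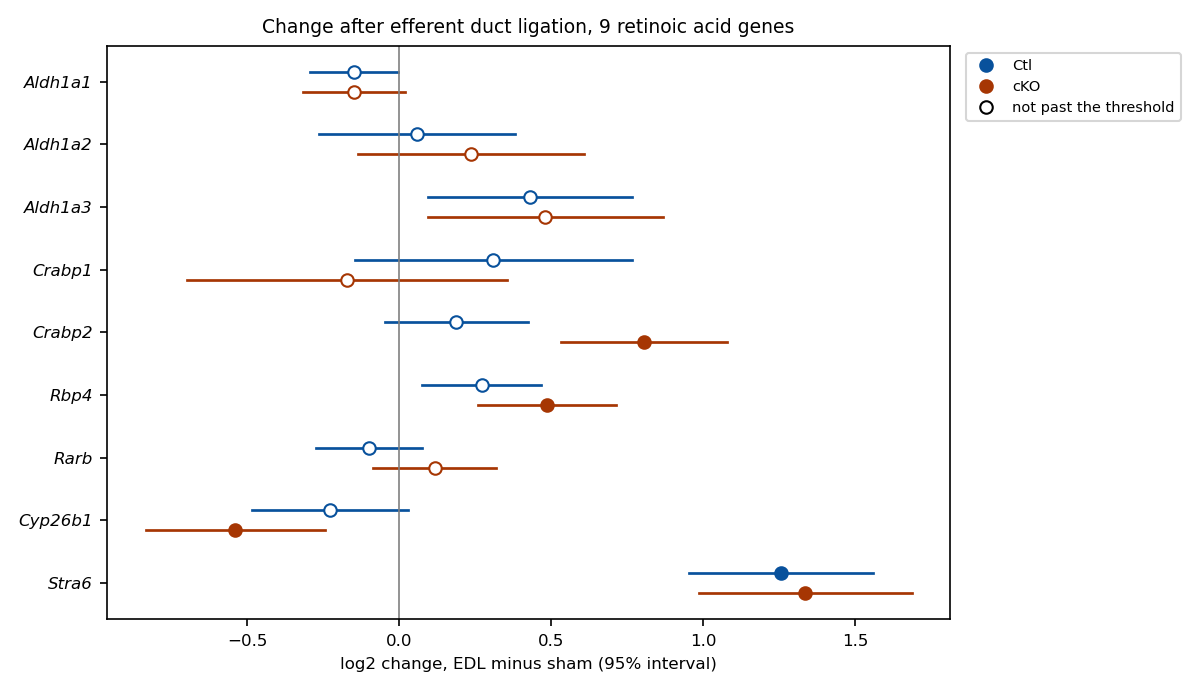
Log2 change, EDL minus sham (x axis), with its 95% interval, of the 9 retinoic acid genes in Ctl (blue) and cKO (brown); filled points passed an adjusted p of 0.05. Stra6 alone is filled in both genotypes (1.26 and 1.33), and Crabp2, Rbp4 and Cyp26b1 are filled in cKO.

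Counted together, 1 of the 9 genes rose and none fell after EDL in Ctl, where 7.88% of all genes passed, so this share was near the background. In cKO, 3 rose and 1 fell, where 9.79% of all genes passed. The median change of the 9 was 0.19 in Ctl and 0.23 in cKO, against 0.01 over all genes in each. The sham and EDL arrays did not overlap for 3 of 9 in Ctl (14.1% of all genes) and 5 of 9 in cKO (25.8%). Without cKO sham replicate 2 the cKO count was 2, and the share of all genes called without that array was not computed. At an unadjusted limma p under 0.05 there were 4 of 9 in Ctl (20.3% of all genes) and 5 of 9 in cKO (22.4%). The difference in change between genotypes was tested by the interaction, and none of the 9 passed it.

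Between genotypes none of the 9 genes passed in sham or in EDL tissue, and neither did any gene of the array (0% called, limma). At an unadjusted p under 0.05 there were 1 of 9 in sham tissue (Crabp2), 1 of 9 in EDL tissue (Crabp1) and 1 of 9 for the interaction (Crabp2). Over all genes the shares at that unadjusted threshold were 3.65%, 6.08% and 4.1%. The median cKO minus Ctl difference of the 9 was -0.06 in sham and 0.07 in EDL tissue. The genotypes did not overlap for 1 of 9 in sham tissue (4.9% of all genes) and 2 of 9 in EDL tissue (5.75%).

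Another 54 measured genes of retinoid metabolism, transport and response were examined in the same fit. In Ctl none rose and 5 fell after EDL (3.32% and 4.57% of all genes rose and fell), and in cKO 6 rose and 5 fell (5.04% and 4.74%). Their median change was 0.09 in Ctl and 0.05 in cKO. The genes called in both genotypes were 3, namely Aldh1a7, Rdh11 and Rdh12. The cKO count was 2 without cKO sham replicate 2, 5 without cKO sham replicate 4, 7 without cKO EDL replicate 3 and 3 without cKO EDL replicate 4. The shares of all genes called without these arrays were not computed, so the lower counts are not particular to this list. Over the genes that did not pass, changes ran from -0.30 to 0.51 in Ctl and from -0.58 to 0.44 in cKO. Between genotypes and for the interaction none of the 54 passed. At an unadjusted limma p under 0.05 there were 5 in sham tissue, 1 in EDL tissue and 2 for the interaction. Over all genes those shares were 3.65%, 6.08% and 4.1%.

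Among the 20 measured dehydrogenases and reductases, 3 fell in each genotype. Aldh1a7, an aldehyde dehydrogenase close in sequence to Aldh1a1, fell by 0.75 in Ctl (-0.75 ± 0.09, limma adjusted p = 8.3e-05) and by 0.88 in cKO (-0.88 ± 0.11). Its Ctl sham arrays read 11.19, 11.04, 11.13 and 11.16 and its Ctl EDL arrays 10.57, 10.13, 10.27 and 10.54, without overlap. The retinal reductase genes Rdh11 and Rdh12 fell by 0.47 and 0.39 in Ctl and by 0.48 and 0.48 in cKO (limma adjusted p = 0.00739, 0.0298, 0.0139 and 0.0197). These are neighbours on chromosome 12 with 0 protein-coding genes between them, and whether their probes share sequence was not tested. The Rdh12 call in Ctl was lost on leaving out sham replicate 2, 4 or 5 or EDL replicate 3 or 5 of Ctl (-0.33 to -0.41, adjusted p = 0.0502 to 0.0966). In cKO both calls were lost on leaving out sham replicate 2 (adjusted p = 0.0745 for Rdh11 and 0.0973 for Rdh12) or EDL replicate 3 (0.0511 and 0.0715), and that of Rdh12 also on leaving out EDL replicate 4 (0.0588). In cKO 2 genes of this group rose: Rdh7 by 0.54 ± 0.12 and Adh1, an alcohol dehydrogenase that oxidises retinol, by 0.43 ± 0.12 (adjusted p = 0.0119 and 0.0389). Their Ctl differences were -0.05 ± 0.11 and 0.29 ± 0.11 (adjusted p = 0.873 and 0.126). For Rdh7 the cKO sham mean was below that of Ctl sham (6.44 and 6.96), without overlap, and the EDL means were 6.98 in cKO and 6.91 in Ctl. That sham difference (-0.52 ± 0.11) did not pass (limma adjusted p = 0.999). The Rdh7 call was lost on leaving out sham replicate 2 or EDL replicate 4 (adjusted p = 0.0652 and 0.0552). The Adh1 call was lost on leaving out sham replicate 2 or 4 or EDL replicate 3 or 4 (0.33 to 0.48, adjusted p = 0.0535 to 0.174), after centring each array on its median (0.36, adjusted p = 0.0724) and with only the arrays compared (0.43, 0.0746).

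Of 11 storage and carrier genes none passed in Ctl, and 2 rose and 1 fell in cKO. In Ctl 3 of the 11 had an unadjusted limma p under 0.05, against 20.3% of all genes. Fabp5, a fatty acid carrier that can also pass retinoic acid to PPAR delta, rose by 0.81 ± 0.19 in cKO (limma adjusted p = 0.016), and read 5.27, 6.05 and 5.72 in sham and 6.48, 6.48 and 6.50 in EDL arrays. Lrp2, an endocytic receptor that takes up RBP4 in kidney, rose by 0.54 ± 0.14 (adjusted p = 0.0234). Ttr, the blood partner of RBP4, fell by 0.42 (-0.42 ± 0.12, adjusted p = 0.0349), from levels near background (5.70, 5.75 and 5.91 in sham arrays). In Ctl the differences were 0.51 ± 0.17 for Fabp5, 0.19 ± 0.12 for Lrp2 and 0.12 ± 0.10 for Ttr (adjusted p = 0.077, 0.431 and 0.56). The genotypes stood apart in sham tissue for Lrp2 and Ttr (cKO minus Ctl -0.31 ± 0.13 and 0.32 ± 0.11), though neither passed (limma adjusted p = 0.999 for each). After EDL these genotype differences were 0.05 ± 0.13 and -0.22 ± 0.11, with overlap. The Fabp5 call was lost without cKO sham replicate 2 (0.60, adjusted p = 0.0829; 0.00556 to 0.0829 over 24 alternatives). The Lrp2 call did not hold on leaving out any 1 cKO array other than EDL replicate 3 (adjusted p = 0.0505 to 0.0931). For Ttr it was lost on leaving out any 1 cKO array except EDL replicate 2 (adjusted p = 0.0632 to 0.122) and in the second log2 table (0.0856). Lcn5, the lipocalin that binds retinoic acid in epididymal fluid, is named for that role after its values were seen. It read 13.28 to 13.63 over the 14 arrays and did not pass in any comparison. These values lay close to the highest of any probe set (13.91), so the lack of a call says little about change.

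Of 12 receptor and coregulator genes none passed in Ctl, where 3 had an unadjusted limma p under 0.05 (20.3% of all genes). In cKO Rara rose by 0.44 ± 0.10 and Ppard fell by 0.38 (-0.38 ± 0.09, limma adjusted p = 0.0158 and 0.0194). Rara, a receptor for retinoic acid, read 8.60, 8.68 and 8.56 in cKO sham and 8.94, 9.08 and 9.14 in cKO EDL arrays, without overlap. Its Ctl difference was 0.27 ± 0.09 (adjusted p = 0.0836), and that of Ppard -0.17 ± 0.08 (0.261). The Rara call was lost on leaving out sham replicate 2 or 4 or EDL replicate 4 (adjusted p = 0.0589, 0.0525 and 0.0642), and the Ppard call on leaving out sham replicate 3 or 4 or EDL replicate 4 (0.0637, 0.0625 and 0.0845). Of 14 genes listed as responding to retinoic acid, 2 fell in Ctl and 2 rose in cKO. At an unadjusted limma p under 0.05 there were 7 of 14 in Ctl (20.3% of all genes) and 5 of 14 in cKO (22.4%). The changes of the 14 ran from -0.83 to 0.37 in Ctl (median 0.13) and from -0.58 to 0.62 in cKO (median 0.12). Hoxb1, a homeobox gene with retinoic acid response elements, fell by 0.83 in Ctl (-0.83 ± 0.17, adjusted p = 0.00737), and Tgm2, a transglutaminase induced by retinoic acid in many cells, fell by 0.45 (-0.45 ± 0.10, adjusted p = 0.0108). The Hoxb1 difference was -0.58 ± 0.20 in cKO, where it did not pass (adjusted p = 0.0887). In cKO the genes that rose were Rara and Rai14 (0.62 ± 0.17, adjusted p = 0.0306), a gene first found as induced by retinoic acid. In Ctl the Rai14 difference was 0.35 ± 0.15 (adjusted p = 0.189), and in cKO that of Tgm2 was -0.17 ± 0.11 (0.425). The cKO sham mean of Tgm2 lay below that of Ctl sham (9.24 and 9.55), without overlap, and the EDL means were 9.07 and 9.10. That sham difference did not pass (limma adjusted p = 0.999). The Rai14 call was lost without any 1 cKO array other than EDL replicate 3 (adjusted p = 0.051 to 0.117). This list therefore held calls in both directions, and it shares Rara with the receptors.

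**Figure D3:**
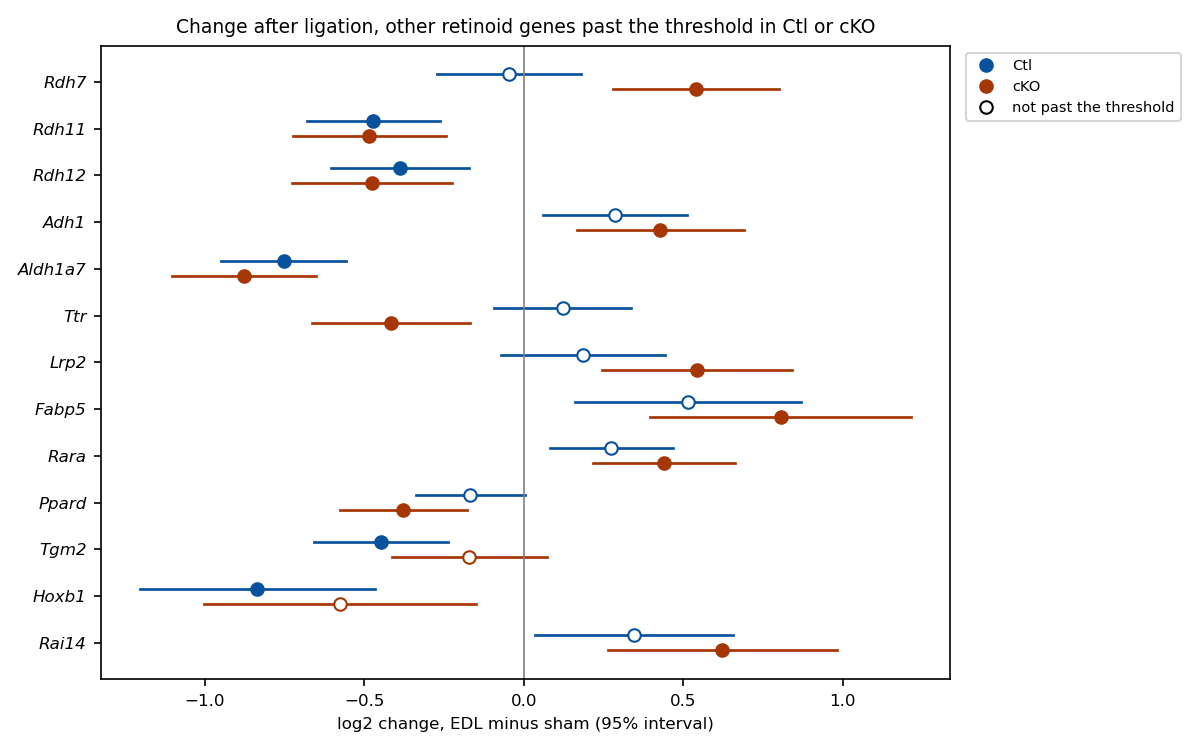
Log2 change, EDL minus sham (x axis), with its 95% interval, of the 13 other retinoid genes that passed in Ctl (blue) or cKO (brown); open points did not pass. Aldh1a7, Rdh11 and Rdh12 are filled and below 0 in both genotypes, and Fabp5 has the largest rise in cKO (0.81).

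Cell type markers moved in the same comparisons as these genes. After EDL in Ctl 0 of 7 fibroblast, 0 of 5 endothelial and 2 of 5 basal cell markers rose. In cKO 4 of 7, 4 of 5 and 4 of 5 rose. Of the 5 smooth muscle markers 0 rose in Ctl and 2 in cKO, with summed intensities of 2862 to 7975 and 4148 to 6733 in Ctl and 2357 to 5352 and 5937 to 10265 in cKO. The summed fibroblast intensity was 4657 to 7687 in Ctl sham and 8017 to 11069 in Ctl EDL arrays, and 3255 to 7217 and 9172 to 13591 in cKO. Of the sperm and spermatid markers 7 of 7 fell in Ctl and 4 of 7 in cKO, with summed intensities of 2010 to 2922 and 243 to 888 in Ctl and 1906 to 2358 and 326 to 977 in cKO. Their genes Akap4 and Tnp1 were at background. Of the 7 mesothelial markers 1 rose in Ctl and 0 in cKO. Their part in the results for Crabp2, Rbp4, Cyp26b1 and the pathway genes was not tested.

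For each member that passed after EDL, the genes with the most similar profile were found by the root mean square difference of centred log2 values over the 14 arrays. For Stra6, which itself varied by 0.674 about its mean, they were Mmp7 (0.245), Wfdc3 (0.249) and Cd68 (0.265). These genes, a matrix protease, a secreted protease inhibitor family member and a macrophage lysosomal marker, had EDL minus sham differences of 1.34, 1.40 and 0.94 in Ctl and 1.34, 1.32 and 0.89 in cKO. Cd68 is 1 of the 7 macrophage markers above. For Crabp2 (0.328 about its mean) they were Wfdc15b (0.141), Plaat3 (0.143) and Arhgap24 (0.150). For Rbp4 (0.218) they were Il6st (0.079), Rif1 (0.081) and Srpx (0.086), and for Cyp26b1 (0.253) Ank2 (0.091), Tgif2lx1 (0.128) and Cbarp (0.132). All arrays share the surgery contrast, so these are descriptions of similar profiles.

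In the pathway list, 2 genes singled out after their values were seen split by replicate number rather than by surgery. Adh7, an alcohol dehydrogenase active on retinol, read 6.11 to 6.97 in the 6 arrays of Ctl replicate 2 and cKO replicates 2 and 3, and 8.45 to 9.23 in the other 8. Nrip1, a corepressor that binds retinoid receptors, read 8.21 to 8.57 in the 4 arrays numbered 3 and 9.47 to 10.88 in the other 10. For both genes the sham and EDL arrays of the same genotype and number lay on the same side of the gap. Neither passed in any comparison, and the Adh7 difference after EDL had an SE of 0.72 in Ctl and 0.83 in cKO.

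**Figure D4:**
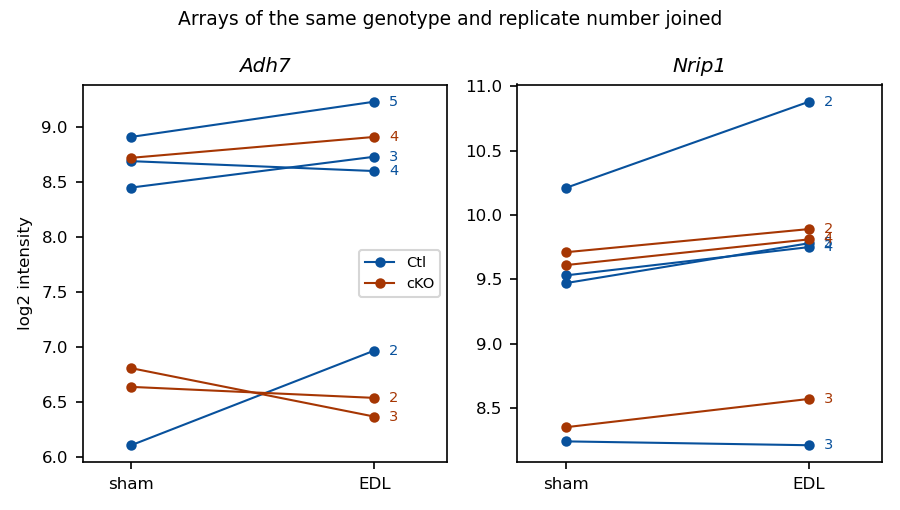
Log2 intensity (y axis) of Adh7 and Nrip1 in sham and EDL arrays, Ctl in blue and cKO in brown; lines join arrays of the same genotype and replicate number, which is written at the right. Nrip1 in the 4 arrays numbered 3 (8.21 to 8.57) lies below the other 10 arrays (9.47 to 10.88).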

How the data were processed

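RNA (100 ng per array) was measured on 14 arrays, grouped by the genotype, surgery and number in their labels. The authors deposited log2 values of 22206 probe sets in 2 parts (2.33 to 13.91), with 1 scan date. Partek 7.0, Expression Console (Affymetrix) and RMA appear in the submitters' processing notes, with no role. A second deposited log2 table (28846 rows, up to 19.02), normalized in a way not given in the sources used here, was an alternative. The authors' deposited comparison table gave p-values and ratios. Recomputed from the log2 values, 100.0% of its 88824 ratios matched within 0.001 (log2). Its 14 columns of array values, whose probe set identifiers differed in 5826 lines, were not used. Symbols came from that table, with 20456 probe sets matched to RefSeq accessions and 902 symbols updated, and the highest-mean probe set was kept per symbol (21929 genes, no filter on low values).

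One limma 3.58.1 fit (R 4.3.3) of 4 group means gave every contrast (two-sided). The threshold was 0.05 for p adjusted by Benjamini-Hochberg across all genes (checked on simulated data). Errors are moderated SEs, or SDs where marked. Nothing says that a number marks 1 mouse, so p-values measure the spread between arrays, and 2 sides of a mouse may share it. Members and lists were chosen with earlier results of these data known. The genes named are the 9 members, every other retinoid gene past the threshold, the 3 closest profiles of each member that passed after EDL, and exceptions marked as such. Of 55 other retinoid genes listed, 1 was not measured. Profiles and promoters were computed in Python 3.11.15. Sequences are from RefSeq, build GRCm38.p6; the array annotation's build was not given in the sources used here.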

Additional observations from a re-analysis of the deposited data

Results flagged for a closer look

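In 48 groups of 4 arrays (24 genes), 4 held an array whose gap to its nearest neighbour, as a share of the group's range, exceeded Dixon's 95% critical value, where chance gives about 1 in 20. Cyp26b1 read 5.70 in 1 Ctl sham array (replicate 4), with the others at 5.20 to 5.27. Rdh12 read 8.96 in Ctl EDL replicate 3, with the others at 9.17 to 9.20. Rara read 9.19 in Ctl EDL replicate 4, with the others at 8.89 to 8.93. Adh7 read 6.11 in Ctl sham replicate 2, with the others at 8.45 to 8.91. Adh7 and Nrip1 were put among the 24 genes after their split by replicate number was seen. The Adh7 flag is part of that split and cannot be set against the chance rate.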

How the results depend on the processing

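Stra6 and Aldh1a7 in both genotypes, Crabp2 in cKO, and Rdh11, Hoxb1 and Tgm2 in Ctl passed in all 24 alternatives for the comparisons of surgeries. The number of members called in Ctl was 1 without any 1 array, and 2 at an adjusted p under 0.1, where Rbp4 passed. In cKO it was 2 to 4 with an array left out. The number of other retinoid genes called in cKO was 6 with only the arrays compared, where Rdh11, Rdh12, Adh1, Ttr and Ppard were lost (adjusted p = 0.0713 to 0.105), and 2 to 12 with an array left out. In Ctl it was 11 at an adjusted p under 0.1. With genotype and number together as a fixed replicate block the members called were 1 in Ctl and 3 in cKO, where Cyp26b1 was lost (-0.54, adjusted p = 0.0521). The other genes called were 6 and 10, without Ttr (-0.42, adjusted p = 0.0619) and Rai14 (0.62, 0.0784). As a random replicate block the counts were 1 and 4, and 7 and 12. The share of all genes called was not computed for these alternatives, so their counts cannot be set against it. Deviations of same-numbered arrays correlated at -0.002 to 0.198, and for 4 of 7 sham arrays the same number was the best partner, so the numbers were not taken to pair arrays. The fixed block cannot be fitted for comparisons of genotypes, and the filter on low values left Cyp26b1 out. No result changed sign where either value passed; signs of differences that never passed were not compared. The number of arrays and signals near background limit Cyp26b1, Ttr and Hoxb1.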
